A study of Mus musculus with 6 samples.

Results

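The 33 genes described here code for the sensors, transcription factors, chaperones, degradation machinery and targets of the unfolded protein response and the integrated stress response. They were taken as a list of gene symbols, and every array probe whose RefSeq accession belongs to one of them was used. All 33 were on the array, with 39 of its 39429 probes, and 30 of them, with 36 probes, passed the filter on dim probes and stand among 14555 measured genes. RNA came from the heart ventricles of C57BL/6N mice, an inbred strain, all female and 21 weeks old. One group had its sleep broken up for 5 weeks (sleep fragmented, 3 arrays), and the other was left undisturbed for that time (control, 3 arrays). No allele, transgene or agent is named for either group. The question was which transcripts of the ventricle differ after chronic sleep fragmentation. Each sample was read in 1 colour on its own Agilent array, and nothing in the labels says that the samples are separate animals, so the p-values measure only the spread between these samples.

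Proteins that enter the endoplasmic reticulum (ER) are folded there by chaperones, and 3 sensors in its membrane react when unfolded protein builds up. Ern1 (IRE1) splices the Xbp1 mRNA into its active form, Atf6 is cut loose as a transcription factor, and Eif2ak3 (PERK) phosphorylates the translation factor eIF2. Phosphorylated eIF2 slows protein synthesis and favours translation of Atf4. Other eIF2 kinases act on the same step, which is why it is called the integrated stress response. Atf6 and Xbp1 raise chaperones and the genes of ER-associated degradation, which returns misfolded proteins to the cytosol. Atf4 and its partner Ddit3 (CHOP) raise genes of amino acid supply, redox control and feedback. Cardiomyocytes fold secreted and membrane proteins through the same machinery. The arrays measure transcript levels, so the splicing of Xbp1, the cutting of Atf6 and the phosphorylation of Eif2ak3 and eIF2 were not measured.

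The promoters were searched for the letters of known elements of the response. In the RefSeq promoter table of build GRCm38.p6, with 250 bases before and 50 bases after the start of each gene, 29 of the 33 members had an entry. Atf6, Hyou1, Manf and Derl1 had none. The ER stress element (ERSE), read by Atf6 with the factor NF-Y, is CCAAT, then 9 bases of any kind, then CCACG, and it was searched on both strands. It stood in 9 of the 29 member promoters (31%) and in 39 of all 32851 promoters (0.119%). ERSE was described from genes of this kind, so its frequency here is a property of the list. The windows below show the element in capitals with 12 bases on each side, on the strand of the gene, because the gene groups with and without it are compared further on. A match that reads CGTGG first and ATTGG last is the element on the opposite strand.
Hspa5, chr2:34772013-34772055, + strand: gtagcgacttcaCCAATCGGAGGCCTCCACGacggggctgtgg
Hsp90b1, chr10:86705626-86705668, - strand: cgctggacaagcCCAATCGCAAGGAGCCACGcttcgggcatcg
Hsp90b1, chr10:86705521-86705563, - strand: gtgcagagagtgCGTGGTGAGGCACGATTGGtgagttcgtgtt
Pdia6, chr12:17266479-17266521, + strand: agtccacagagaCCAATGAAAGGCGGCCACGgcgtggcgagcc
Dnajc3, chr14:118937815-118937857, + strand: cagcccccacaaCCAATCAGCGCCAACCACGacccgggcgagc
Creld2, chr15:88819508-88819550, + strand: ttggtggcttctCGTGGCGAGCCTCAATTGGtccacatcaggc
Calr, chr8:84847063-84847105, - strand: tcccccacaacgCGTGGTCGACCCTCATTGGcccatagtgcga
Canx, chr11:50325788-50325830, - strand: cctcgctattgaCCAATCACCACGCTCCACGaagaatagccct
Syvn1, chr19:6046520-6046562, + strand: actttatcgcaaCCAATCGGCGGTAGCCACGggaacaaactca
Derl3, chr10:75893230-75893272, + strand: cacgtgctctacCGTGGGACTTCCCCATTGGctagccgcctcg

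ERSE thus stood in 7 chaperone and folding genes and in 2 genes of ER-associated degradation, and Hsp90b1 carried it 2 times. In Hspa5 it lay at positions -65 to -47 relative to the start. The related ERSE-II, ATTGG, 1 base of any kind, then CCACG, was found in 1 member promoter, that of Herpud1, and in 12 of all promoters (0.0365%). The core of the Atf4 element, TGATG, 1 base of any kind, then AA, was found in 4 of the 29 (13.8%) against 3.97% of all promoters. It stood in Asns, Chac1, Herpud1 and Trib3, and the windows of Asns and, on the opposite strand, Chac1 are shown with the core in capitals because these genes are read below as Atf4 targets. The core GACGTG, bound by Xbp1, stood in Ddit3, Hspa5, P4hb and Pdia6 (13.8%) against 6.38% of all promoters. ERSE and ERSE-II share the CCACG box, and no base belonged to matches of different elements in a member promoter. A match describes letters in the window and says nothing of binding.
Herpud1 ERSE-II, chr8:94386365-94386399, + strand: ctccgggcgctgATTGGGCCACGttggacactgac
Asns Atf4 core, chr6:7693213-7693244, - strand: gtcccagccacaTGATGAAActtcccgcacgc
Chac1 Atf4 core, chr2:119351037-119351068, + strand: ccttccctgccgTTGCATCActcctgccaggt

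The share of probes called well above background ran from 59.2%, on sleep fragmented replicate 1, to 72.6%, and 0 spots were saturated. The 3 arrays of each group were read together in a scan of their own, which means that scan and treatment cannot be told apart. All 10 ventricular cardiomyocyte markers (Myh6, Myl2, Tnnt2 and others) were well above background on all 6 arrays. Markers of other cells varied within the groups. The atrial list stood, on the log2 scale and relative to the control mean, at -1.43, 2.99 and 0.24 on the sleep fragmented arrays and at -1.85, 1.83 and 0.02 on the control arrays. The adipocyte list was also highest on replicate 2 of each group (2.27 in the sleep fragmented group and 1.59 in the control group). The fibroblast list was positive in 7 of 7 genes, with a mean of 0.51, 0.84 and -0.08 on the sleep fragmented arrays and 0.15, -0.10 and -0.05 on the control arrays. All 5 of 5 erythroid genes were measured, and their mean stood at 2.31, 1.12 and 0.68 on the sleep fragmented arrays and at -0.18, 0.12 and 0.06 on the control arrays. Of these, 4 of 5 had an unadjusted p under 0.05 by limma, against 2.96% of all measured genes. These are bulk samples, so a different number of cells of a type and a different amount of RNA per cell cannot be told apart.

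No stress response gene passed the test. In the fit over all 25228 probes (two-sided limma, Benjamini-Hochberg adjustment), 0 of the 36 member probes had an adjusted p under 0.05, where the share over all probes was 0%. The smallest adjusted p of a member was 0.938. Before adjustment, p was under 0.05 for 0 of 36 member probes, against 2.91% of all probes, and for 0 of 30 member genes, against 2.96% of all measured genes. None differed by 1.5-fold or more (0 of 30), against 3.62% of all genes. The groups did not overlap in 1 of 30 (3.33%), against 7.61% of all genes, with 1 lower member against 3.97% of all genes and 0 higher members against 3.64%. The log2 fold changes of the members, sleep fragmented over control, ran from -0.57 (Sesn2) to 0.22 (Pdia4) with a median of 0.01, beside a median of 0.05 over all measured genes. Positive values were found for 16 of 30 members (53.3%), against 58.7% of all genes. With each array's median in place of its 75th percentile as the scale, 1 of 30 was positive, and the median over all genes was then -0.16.

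The precision of these values can be read from their 95% intervals. In 15 of 30 members (50%) the whole interval lay within 1.5-fold in either direction, against 35.9% of all genes. The median pooled SD within groups was 0.21 on the log2 scale for the members and 0.26 for all genes. The tightest member was Atf4 (pooled SD 0.07) and the widest was Sesn2 (0.49). The lowest lower bound was 0.412-fold, for Sesn2, and the highest upper bound was 1.79-fold, for Atf6. For each gene, the interval holds the differences that are compatible with its values on 3 arrays a group. It is not a limit of detection.

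**Figure D1:**
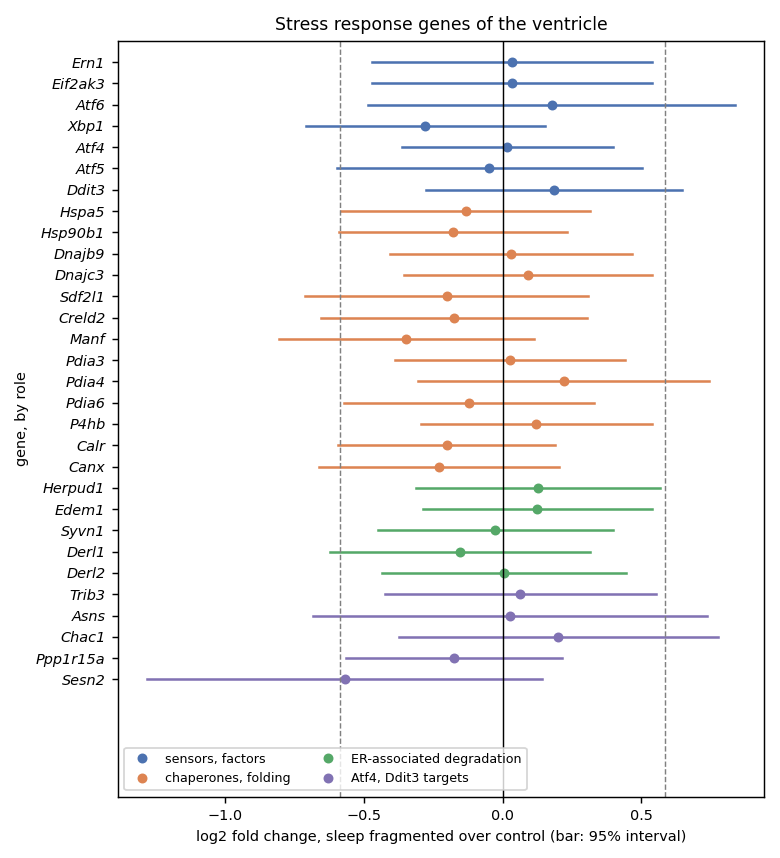
Log2 fold change of the 30 measured stress response genes, sleep fragmented over control (points), with 95% intervals from limma (bars), coloured by role; dashed lines mark 1.5-fold. Every interval includes 0, and 15 of 30 lie within the dashed lines.

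The 3 sensors had positive log2 fold changes smaller than their errors. All levels below are log2 signals relative to the array's 75th percentile, and levels of different probes are not set against each other. Ern1 had -1.74, -2.19 and -2.02 on the sleep fragmented arrays and -2.04, -2.33 and -1.69 on the control arrays, a log2 fold change of 0.04 ± 0.22 (SE, limma, adjusted p = 0.984). The groups cover nearly the same range. Eif2ak3 had -1.05, -0.62 and -0.70 on the sleep fragmented arrays and -0.54, -0.76 and -1.17 on the control arrays (0.03 ± 0.22). Atf6 had -0.44, -1.34 and -1.12 on the sleep fragmented arrays and -1.61, -0.80 and -1.02 on the control arrays (0.18 ± 0.29). Sleep fragmented replicate 1 was the high array for Atf6 and control replicate 1 the low one, with the others in between.

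Among the transcription factors the members lay on both sides of 0. Xbp1, the target of the Ern1 nuclease, had 4.05, 4.51 and 4.32 on the sleep fragmented arrays and 4.66, 4.60 and 4.46 on the control arrays. Its log2 fold change was -0.28 ± 0.19 (unadjusted p = 0.177, adjusted p = 0.938 by limma), and only sleep fragmented replicate 2 reached into the control range. Atf4, the main factor of the eIF2 branch, had 4.80, 4.75 and 4.81 in the sleep fragmented group and 4.68, 4.85 and 4.79 in the control group. The log2 fold change of Atf4 was 0.02 ± 0.17, with a 95% interval from 0.777-fold to 1.32-fold. A second, dimmer Atf4 probe gave 0.24 ± 0.18. Atf5, which is controlled by upstream reading frames as Atf4 is, had 3.60, 3.56 and 3.13 in the sleep fragmented group and 3.12, 3.89 and 3.41 in the control group (-0.05 ± 0.24). Ddit3, whose product is linked to cell death under lasting ER stress, had -1.03, -1.17 and -0.85 in the sleep fragmented group and -1.50, -1.14 and -0.97 in the control group. Its log2 fold change was 0.19 ± 0.20 (adjusted p = 0.938), the groups overlapped, and the 95% interval ran from 0.827-fold to 1.57-fold. Counted together, 5 of 7 sensors and factors were positive, 0 of 7 passed the test, and their median was 0.03.

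**Figure D2:**
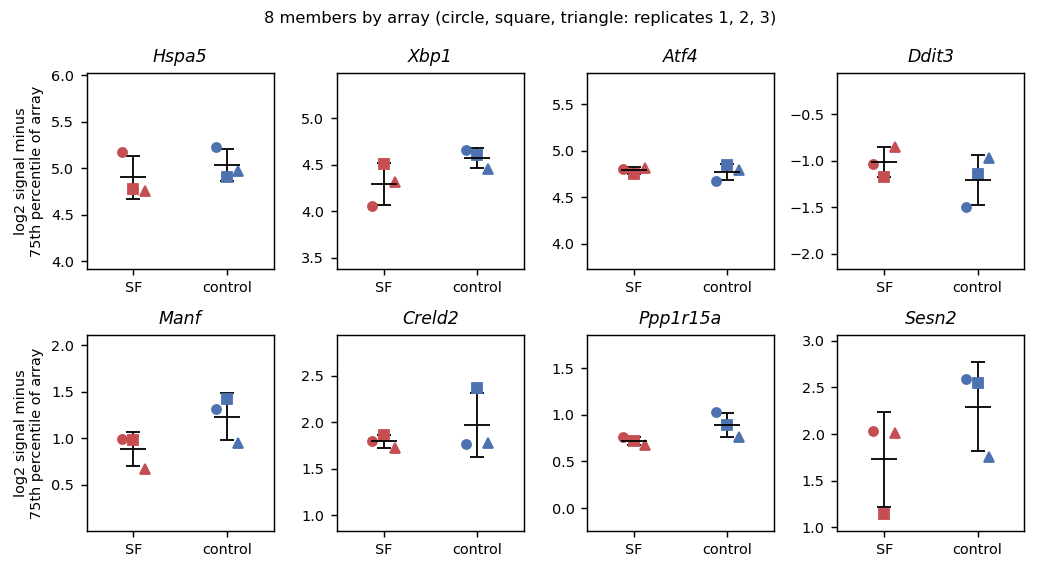
Levels of 8 stress response genes on each array, as log2 signal minus the array's 75th percentile (y axis, of equal height in every panel), sleep fragmented (SF, left) and control (right); points are arrays, and bars are the mean ± SD of 3. The groups overlap in every panel except Ppp1r15a, whose nearest arrays are 0.76 (SF) and 0.77 (control).

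The chaperones and folding enzymes were 13 of 14 measured, and 5 of 13 were positive, with a median log2 fold change of -0.13. Hspa5 (BiP), the Hsp70 of the ER and the standard marker of its stress, had 5.17, 4.78 and 4.76 on the sleep fragmented arrays and 5.23, 4.91 and 4.97 on the control arrays. The Hspa5 log2 fold change was -0.13 ± 0.20 (adjusted p = 0.944), and its 95% interval reached up to 1.24-fold. Replicate 1 was the highest array in each group. The value was -0.27 without sleep fragmented replicate 1, where the groups no longer overlapped, and -0.035 without control replicate 1. Hsp90b1 (Grp94), the Hsp90 of the ER, had 3.44, 3.43 and 3.32 in the sleep fragmented group and 3.57, 3.77 and 3.38 in the control group (-0.18 ± 0.18). Hyou1 (Grp170), which helps Hspa5 exchange its nucleotide, did not pass the filter. It was well above background on 2 of 3 sleep fragmented arrays and 0 of 3 control arrays. The measured Hyou1 values were -3.07, -3.40 and -3.05 on the sleep fragmented arrays and -3.85, -5.10 and -3.71 on the control arrays. The groups did not overlap in these values, but most of them were not above background, so no fold change is given for Hyou1.

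The co-chaperones of Hspa5 also overlapped between the groups. Dnajb9 (ERdj4) gave 0.03 ± 0.19 and a second probe 0.16 ± 0.18, both as log2 fold changes. Dnajc3 (p58IPK) had 0.24, 0.64 and 0.62 in the sleep fragmented group and 0.21, 0.47 and 0.54 in the control group (0.09 ± 0.20). Sdf2l1, which works with ER J-proteins, had -0.78, -1.23 and -1.31 in the sleep fragmented group and -1.17, -0.61 and -0.95 in the control group (-0.20 ± 0.23). Creld2, an ER protein raised by stress, had 1.80, 1.87 and 1.73 in the sleep fragmented group and 1.77, 2.37 and 1.78 in the control group. Control replicate 2 alone stood above the other arrays for Creld2, and the log2 fold change of -0.17 ± 0.21 was 0.02 without that array. Manf, a secreted cofactor of Hspa5, had 0.99, 0.99 and 0.67 in the sleep fragmented group and 1.32, 1.43 and 0.95 in the control group. Its log2 fold change was -0.35 ± 0.20 (unadjusted p = 0.123, adjusted p = 0.938 by limma), the most negative among the chaperones, and control replicate 3 lay inside the sleep fragmented range.

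The disulfide isomerases and lectins form the rest of this group. The isomerases Pdia3, Pdia4 and P4hb had log2 fold changes of 0.03 ± 0.18, 0.22 ± 0.23 and 0.12 ± 0.18. Pdia4 had -0.91, -1.35 and -1.67 in the sleep fragmented group and -1.73, -1.38 and -1.47 in the control group, with sleep fragmented replicate 1 well above the control range and replicate 3 inside it, and its log2 fold change was 0.02 without replicate 1 and 0.40 without replicate 3 of that group. Pdia6 gave -0.12 ± 0.20, and its second probe gave 0.05 ± 0.20, so the probes differ in sign within their errors. Calr, the soluble lectin chaperone that also binds calcium, had 1.77, 1.88 and 1.74 in the sleep fragmented group and 2.05, 2.07 and 1.87 in the control group (-0.20 ± 0.17, adjusted p = 0.938). Its groups touch, since sleep fragmented replicate 2 was just above control replicate 3. Canx, the membrane-bound lectin, had 3.88, 3.99 and 4.31 in the sleep fragmented group and 4.22, 4.42 and 4.21 in the control group (-0.23 ± 0.19).

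Genes of ER-associated degradation were centred on 0, with a median log2 fold change of 0.00 over 5 of 7 measured and 3 of 5 positive. Herpud1, which assembles the degradation complex, had 4.31, 4.03 and 4.48 in the sleep fragmented group and 4.16, 3.99 and 4.28 in the control group (0.13 ± 0.19, adjusted p = 0.944). In each group replicate 2 was the lowest array. Edem1, which trims glycans of misfolded proteins, gave 0.13 ± 0.18, and the ubiquitin ligase Syvn1 (Hrd1) gave -0.03 ± 0.19. Derl1, a channel component, had 1.95, 2.27 and 1.96 in the sleep fragmented group and 2.04, 2.53 and 2.08 in the control group (-0.15 ± 0.21, and -0.28 ± 0.20 from its second probe). Derl2, a relative of Derl1, was read by 3 probes with log2 fold changes of 0.00, -0.06 and 0.16, each smaller than its error. Sel1l, the adaptor of Syvn1, did not pass the filter, being above background on 2 of 3 sleep fragmented and 2 of 3 control arrays. Its measured values were -3.03, -2.98 and -2.72 in the sleep fragmented group and -3.28, -3.13 and -3.06 in the control group. Derl3, the derlin of secretory tissues, was above background on 0 of 3 sleep fragmented arrays and on 1 of 3 control arrays. The Derl3 signals were -4.09, -3.98 and -3.36 in the sleep fragmented group and -4.41, -3.09 and -3.40 in the control group.

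Targets of Atf4 and Ddit3 held the most negative member. Sesn2, a leucine sensor that restrains mTORC1, had 2.03, 1.14 and 2.01 on the sleep fragmented arrays and 2.59, 2.55 and 1.75 on the control arrays. Its log2 fold change was -0.57 ± 0.31 (unadjusted p = 0.104, adjusted p = 0.938 by limma), with a 95% interval from 0.412-fold to 1.10-fold. Sleep fragmented replicate 2 was the lowest array and control replicate 3 lay below the other sleep fragmented arrays. The value became -0.27 without sleep fragmented replicate 2, and -0.84 (unadjusted p = 0.0162, adjusted p = 0.386) without control replicate 3. Sleep fragmented replicate 2 is also the array with the highest atrial and adipocyte markers given above, and their part in this value was not tested.

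The other targets were closer to 0. Asns, which makes asparagine, had -1.10, -0.09 and -1.33 in the sleep fragmented group and -0.84, -0.67 and -1.10 in the control group. Sleep fragmented replicate 2 again stood apart, here on the high side, and the log2 fold change of Asns was 0.03 ± 0.31 with it and -0.35 without it. Chac1, which degrades glutathione, had 0.45, 1.11 and 1.10 in the sleep fragmented group and 1.06, 0.46 and 0.54 in the control group (0.20 ± 0.25). In both groups replicate 1 stood apart from the others, in opposite directions. Trib3, a pseudokinase that feeds back on the pathway, gave 0.06 ± 0.22. Ppp1r15a (GADD34), which brings a phosphatase to eIF2 and so ends its phosphorylation, had 0.76, 0.73 and 0.67 in the sleep fragmented group and 1.03, 0.89 and 0.77 in the control group. It is the 1 of 30 members whose groups did not overlap, and its log2 fold change was -0.18 ± 0.17 (unadjusted p = 0.336, adjusted p = 0.938 by limma). Its groups did overlap with quantile normalization, median scaling, normexp background correction and in the authors' deposited table. Over the 5 targets, 3 of 5 were positive, with a median of 0.03.

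The members' highest values were unevenly spread over the arrays. Control replicate 2 was the highest of the 6 arrays for 10 of 30 members, and control replicate 3 for 1 of 30. Sleep fragmented replicate 3 and control replicate 1 were each the lowest for 9 of 30, and sleep fragmented replicate 2 for 1 of 30. Such counts were not taken over all genes, so they have no reference. Each member's deviation from its own mean over all 6 arrays was also taken. The median of the members was 0.13 on control replicate 2, where that of all genes was -0.11. On the sleep fragmented arrays the members' median deviation lay between -0.05 and -0.02. The list of B and plasma cell markers, cells which carry a large ER, had its highest mean on the same array. That mean stood at -0.22, -0.47 and -0.83 on the sleep fragmented arrays and at -1.26, 1.88 and -0.62 on the control arrays, relative to the control mean. Of 7 markers, 3 were measured (Cd79b, Jchain and Cd79a), and Ms4a1, Mzb1, Sdc1 and Tnfrsf17 did not pass the filter. The high mean came from Cd79b and Jchain, while Cd79a was highest on sleep fragmented replicate 1 (-2.22) and had -2.97 on control replicate 2. The summed linear signal of the 3 ran from 93.9 to 143 on the sleep fragmented arrays and from 97.1 to 1639 on the control arrays. The 10 members were Creld2, Sdf2l1, Manf, Hsp90b1, Calr, Canx, Derl1, Atf4, Atf5 and Trib3, while Herpud1, Dnajb9 and Ern1 were lowest on control replicate 2. The part of these cells in the members' values was not tested, and without control replicate 2 the members' median was 0.04.

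**Figure D3:**
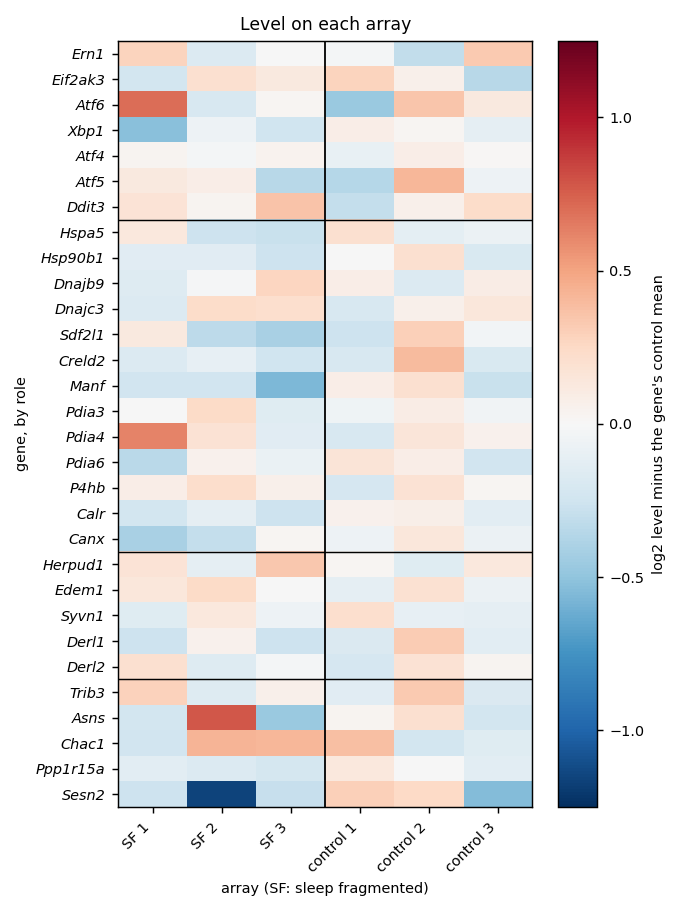
Level of each of the 30 measured members on each array, as log2 level minus the gene's mean over the 3 control arrays (colour), with sleep fragmented arrays (SF) left of control arrays and genes ordered by role. Control replicate 2 has the highest value of the 6 arrays in 10 of 30 genes, and the low value of Sesn2 and high value of Asns on SF 2 stand out.

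Members with ERSE in the promoter had a lower median log2 fold change than those without it, a comparison made after the values were seen and given with no test. Of the 8 measured members with ERSE, 7 were negative and 1 (Dnajc3) was positive, with a median log2 fold change of -0.15. Of 19 with a promoter entry and no ERSE, 14 were positive, with a median of 0.03. These lack only the exact letters of ERSE, since Herpud1 with ERSE-II and Ddit3 and P4hb with the Xbp1 core are among them. Manf (-0.35), Derl1 (-0.15) and Atf6 (0.18) had no entry and are in neither set. The sets also differed in signal level. All 8 with ERSE had positive mean levels in both groups. Without it, Ern1, Eif2ak3, Ddit3, Pdia4, Asns and Sdf2l1 had negative ones, and of these only Sdf2l1 had a negative log2 fold change (-0.20). The median over all genes was 0.129 with no filter on dim probes and 0.047 with only probes well above background on all arrays. The part of signal level in the difference between the sets was not tested. With quantile normalization 2 of 8 with ERSE and 11 of 19 without it were positive. The counts were 1 and 10 with normexp, and 0 and 1 with median scaling. The mean of the 8 relative to the control mean was -0.18, -0.06 and -0.12 on the sleep fragmented arrays and 0.02, 0.09 and -0.11 on the control arrays, so the groups overlapped through control replicate 3. In none of the 8 did the groups separate (0 of 8), and 0 of 8 passed the test. The median with ERSE minus the median without it was -0.18, and it ran from -0.27 to -0.12 over the alternatives tried. Median scaling, the other filters, the block and the other prior left this difference unchanged, so they do not check it. With median scaling the medians were -0.36 and -0.18. Of the measured genes outside the list that carry the same element, 4 of 9 were positive, with a median of -0.01. The 4 members with the Atf4 core were all positive (4 of 4, median 0.10), with values between 0.03 and 0.20, each below its error, and with median scaling all 4 were negative.

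**Figure D4:**
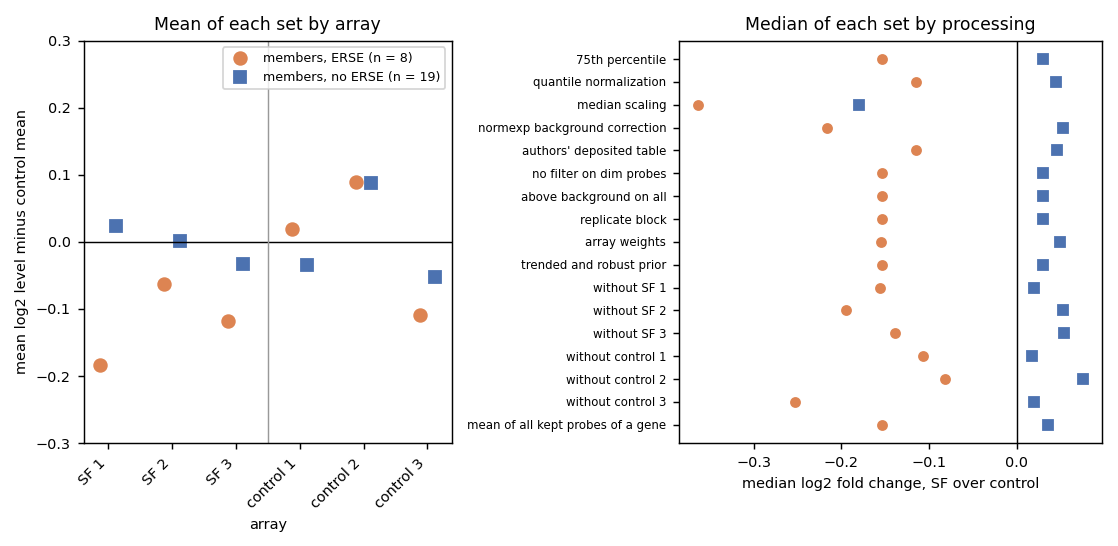
Left, mean log2 level relative to the control mean on each array for the 8 measured members with ERSE (circles) and the 19 with a promoter entry and no ERSE (squares), sleep fragmented (SF) left of control; right, median log2 fold change of both sets under each way of processing. Circles lie left of squares in every row, and on the arrays the circle of control 3 (-0.11) lies within the sleep fragmented range.

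The pathway beyond the members was read from lists of further genes, 156 in all, of which 146 were measured. None passed the adjusted test (0 of 146), 5 had an unadjusted p under 0.05 (3.42%, against 2.96% of all genes), and the groups did not overlap in 11 (7.53%, against 7.61%). Positive values were found for 73 of 146, with a median of 0.00. By list, 20 of 32 further ER chaperones and disulfide enzymes, 16 of 33 genes of ER-associated degradation, 25 of 42 further Atf4 and Ddit3 targets and 6 of 12 sensors and kinases were positive. The subunits of eIF2, of its exchange factor eIF2B and of its phosphatases were positive in 4 of 16, with a median of -0.06. Mitochondrial chaperones and proteases were positive in 3 of 13, with a median of -0.03.

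The lowest p in these lists belonged to another eIF2 kinase. Eif2ak2 (PKR), which senses double-stranded RNA and is itself induced by interferon, had -3.48, -2.80 and -3.17 on the sleep fragmented arrays and -2.28, -2.02 and -2.46 on the control arrays. Eif2ak2 was well above background on 2 of 3 sleep fragmented arrays and 3 of 3 control arrays, so it passed the filter through the control group. The array not above background (sleep fragmented replicate 1) was then set to the lowest signal called above background there. With that value, the mean of Eif2ak2 was 1.51-fold lower in the sleep fragmented group. This allows only for the dim array at this scaling, and not for the spread between arrays. The groups did not overlap in the measured values, whose log2 fold change was -0.89 ± 0.23 (unadjusted p = 0.00338, adjusted p = 0.938 by limma, both resting in part on that dim array), and with normexp background correction the log2 fold change was -0.15. Ddit4 (REDD1), an inhibitor of mTORC1, had 4.68, 5.13 and 3.95 in the sleep fragmented group and 3.89, 4.11 and 3.24 in the control group (0.84 ± 0.33, unadjusted p = 0.0313). Replicate 3 was the lowest array of each group for Ddit4, and the groups overlapped. Sesn3, a relative of Sesn2, gave 0.54 ± 0.24 and Phgdh, the first enzyme of serine synthesis, gave 0.48 ± 0.21, with overlapping groups and the same adjusted p of 0.938. Phgdh gave 0.24 as the mean over its kept probes and 0.27 with quantile normalization.

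Eprs, the tRNA synthetase for glutamate and proline, had 0.82, 0.44 and 1.00 on the sleep fragmented arrays and 1.21, 1.39 and 1.20 on the control arrays. The groups did not overlap, and the log2 fold change was -0.51 ± 0.20 (unadjusted p = 0.0322, adjusted p = 0.938 by limma). Tars, the synthetase for threonine, gave -0.28 ± 0.21, also without overlap, and -0.093 without sleep fragmented replicate 1. The cytosolic synthetases of the list were then looked at together, a choice made after these values were seen. Of 11 measured, 9 were negative, with a median of -0.20 and a range from -0.51 to 0.03. Their mean was -0.29, -0.23 and -0.01 on the sleep fragmented arrays and -0.06, 0.03 and 0.04 on the control arrays, relative to the control mean, so the groups overlapped. The median ran from -0.41 with median scaling to -0.08 without sleep fragmented replicate 1.

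The remaining genes without overlap had log2 fold changes between -0.31 and 0.47. Ppp1r15b (CReP), the constitutive partner of Ppp1r15a in removing phosphate from eIF2, had -1.91, -2.18 and -2.25 in the sleep fragmented group and -2.52, -2.58 and -2.38 in the control group. Its log2 fold change of 0.38 ± 0.18 (adjusted p = 0.938) thus had the opposite sign to that of Ppp1r15a, and the difference between these genes was not tested. Sec61b, a subunit of the ER translocon, gave 0.47 ± 0.24, with sleep fragmented replicate 1 far above the rest at 6.89; without that array it gave 0.23, and its second probe gave 0.26. Slc3a2, the heavy chain of amino acid transporters, gave 0.26 ± 0.17, the antioxidant factor Nfe2l2 gave 0.18 ± 0.17 and the chaperone Cnpy3 gave 0.15 ± 0.17. The pro-apoptotic gene Bbc3 gave 0.04 ± 0.16, and with median scaling Nfe2l2, Cnpy3 and Bbc3 turned negative, Bbc3 also with normexp. The chaperone Mesd gave -0.31 ± 0.20 (-0.17 without control replicate 1) and the mitochondrial unfoldase Clpx gave -0.21 ± 0.18.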

How the data were processed

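Total RNA of 6 ventricle samples was measured on 1-colour arrays. Intensity values were deposited by the authors as 1 scanner table per array. Per the file headers the scanner software was Feature Extraction 11.0.1.1 and the array design 026655; version 10.5.1.1 stands in the submitters' processing notes. The deposited flags (other values, 0 or 1) mark spots above background, saturated or outlying. The authors also deposited a log2 table, whose columns share a median of 5.54 and follow the scanner signals of their own arrays. No source used here states its normalization. It carries no centring by gene, and it was used as an alternative. Its log2 fold changes of members nearly equalled those with quantile normalization (-0.54 in both for Sesn2, -0.10 in both for Hspa5). These alternatives therefore do not count as separate checks, though single values differed by up to 1.06.

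Control spots and outlier spots (180 to 240 on an array) were removed, spots of a probe were averaged, and log2 signals were set relative to each array's 75th percentile. A probe was kept if all arrays of a group, or of both, called it well above background. The brightest kept probe stood for a gene. Names came from RefSeq accessions matched to a GRCm38.p6 gene table (27234 of 39429 probes). The array was designed on another build, so no probe positions are given. Groups were compared with limma 3.58.1 in R 4.3.3 (lmFit, eBayes, prior degrees of freedom 5.02), two-sided. P-values were adjusted over the kept probes (Benjamini-Hochberg, threshold 0.05). A fold change has the sleep fragmented group on top, and ± after it is the moderated SE. The fit was tested on simulated data. The number of arrays limits the precision.

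The members and the lists of further genes and markers were chosen with earlier results of these data known. All members are reported; 1 marker gene is not reported here. Of each further list, up to 3 genes per direction without overlap of the groups and with the smallest p are named, and those with an unadjusted p under 0.05 are added. Alternatives were quantile and median scaling, normexp (offset 50; on the median signal, since the tables hold no mean signal), the authors' table, other filters, a block, array weights, another prior, the mean over probes and leaving out each array.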

Additional observations from a re-analysis of the deposited data

How the results depend on the processing

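The count of called members was 0 under all 16 alternatives, and the smallest adjusted p of a member by limma was 0.386 (Sesn2, without control replicate 3). Its unadjusted p was 0.0429 with median scaling and 0.025 with normexp, and that of Manf was 0.0447 with normexp and 0.0428 with array weights. Over all probes, 735 had an unadjusted p under 0.05, against 1124 with median scaling, 1531 without the filter, 1454 with array weights and, leaving out 1 array, 450 (sleep fragmented replicate 1) to 3016 (control replicate 3). With normexp 3 probes passed the adjusted threshold. The members' median of 0.01 became -0.20 with median scaling, and lay between -0.08 and 0.04 when 1 array was left out. The count of members without overlap, 1 in the report, was 0 with quantile normalization, normexp and the authors' table. With median scaling it was 1, but the gene was Ern1 (lower, -0.17) in place of Ppp1r15a. The count was 3 without the filter, which adds Hyou1 and Sel1l. It ran from 1 to 7 when 1 array was left out, where fewer arrays make separation easier.

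Of 30 members, 11 kept their sign under every alternative and 14 under each scaling and background correction. The values of opposite sign were up to 0.35 in size (Asns, without sleep fragmented replicate 2). Median scaling shifts every gene alike. With median scaling the log2 fold changes were -0.18 for Asns, -0.19 for Atf4, -0.033 for Atf6, -0.0095 for Chac1, -0.024 for Ddit3, -0.21 for Derl2, -0.18 for Dnajb9, -0.12 for Dnajc3, -0.085 for Edem1, -0.18 for Eif2ak3, -0.17 for Ern1, -0.081 for Herpud1, -0.089 for P4hb, -0.18 for Pdia3 and -0.15 for Trib3. With normexp they were -0.029 for Dnajb9, -0.026 for Herpud1, -0.089 for Pdia3 and -0.015 for Trib3, with quantile normalization -0.056 for Asns, -0.017 for Eif2ak3, -0.17 for Ern1 and 0.015 for Syvn1, and in the authors' deposited table -0.056 for Asns, -0.016 for Eif2ak3, -0.17 for Ern1 and 0.015 for Syvn1. With array weights they were -0.14 for Asns, 0.045 for Atf5, -0.046 for Eif2ak3 and -0.00089 for Pdia3. Apart from the shift by median scaling, the cause of these changes was not tested. Leaving out 1 array gave ranges from -0.031 to 0.056 for Atf4, -0.22 to 0.16 for Atf5, -0.10 to 0.096 for Derl2, -0.079 to 0.12 for Pdia3, -0.10 to 0.082 for Syvn1, -0.26 to 0.0045 for Derl1, -0.28 to 0.023 for Creld2, -0.050 to 0.23 for Trib3, -0.088 to 0.13 for Dnajb9, -0.0074 to 0.22 for Dnajc3, -0.14 to 0.18 for Eif2ak3, -0.35 to 0.27 for Asns, -0.085 to 0.36 for Atf6 and -0.12 to 0.20 for Ern1.

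The groups share replicate numbers. Same-numbered arrays deviated together with r of 0.06, 0.55 and 0.21, and sleep fragmented replicate 1 correlated best with control replicate 3 (0.36). The labels state no pairs, so the main fit has no block, and a fit with a block is given beside it. With the replicate block 0 members passed, the members' median was 0.01, 2018 probes had an unadjusted p under 0.05 and 4 passed the adjusted threshold. The position code of the arrays splits them as these numbers do, so a block by it is the same fit. Among members that kept their sign, leaving out 1 array gave -0.39 to -0.16 for Xbp1, -0.49 to -0.24 for Manf, -0.84 to -0.27 for Sesn2 and 0.038 to 0.30 for Ddit3. Signal over background limits Hyou1, Sel1l and Derl3, and 3 arrays a group limit all members.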
